A study of Mus musculus with 12 samples.

Results

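The tumour suppressor p53 and a small set of genes that it controls were examined in mouse acute myeloid leukaemia (AML) cells treated with inhibitors of MEK, mTOR or PI3K. The 9 genes were taken by symbol from a table of 23234 genes: Trp53, which encodes p53, its inhibitors Mdm2 and Mdm4, and the target genes Aen, Ccng1, Gdf15, Phlda3, Rps27l and Trp53inp1. All 9 were expressed at 1 FPKM or more on average over the 12 libraries and were tested among 10305 such genes. FPKM (fragments per kilobase of transcript, scaled to the number of mapped fragments) is a length-scaled expression level. The cells were primary AML cells of an (FVB/n X C57/BL/6J) F1 background that carry both NRASG12V, an activated RAS oncogene, and the fusion oncogene Mll-AF9. Every group carried both oncogenes and was cultured with GM-CSF, and the labels name no Trp53 allele, no promoter driving the oncogenes and no oncogene-free cells. Cells were exposed for 24 h to the solvent DMSO, to 20 µM PD325901, an inhibitor of the kinases MEK1 and MEK2, to 26 µM RAD001 (everolimus), an inhibitor of mTOR complex 1, or to 20 µM GDC0941, an inhibitor of class I PI3 kinases. Each group had 3 libraries, and the labels do not say whether these came from separate cultures or animals, so p-values measure only the spread between these samples.

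In unstressed cells p53 is kept low by Mdm2, a ubiquitin ligase that marks it for destruction, and by Mdm4, a relative of Mdm2 that blocks its activity. DNA damage, oncogene signalling through the Arf product of Cdkn2a, and free ribosomal proteins that bind Mdm2 release p53, which then switches on genes for cell cycle arrest, repair and cell death. Mdm2 is itself a p53 target, which closes a feedback loop. Much of this control acts on the p53 protein, which was not measured here: all values below are RNA levels.

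p53 binds DNA through its response element, a pair of adjacent decamers of 10 bases, each with the core CNNG. Sequences close to that element were found near the start sites of 4 members. They are shown, with the Cdkn1a element for comparison, because their letters resemble the response element. The 20 bases in capitals are the match, both core motifs were required, and the element is its own reverse complement, so both strands were searched.
Ccng1: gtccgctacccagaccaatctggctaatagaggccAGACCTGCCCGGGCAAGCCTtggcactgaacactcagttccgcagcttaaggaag
Rps27l: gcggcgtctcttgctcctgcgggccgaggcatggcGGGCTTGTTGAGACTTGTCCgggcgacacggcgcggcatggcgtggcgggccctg
Aen: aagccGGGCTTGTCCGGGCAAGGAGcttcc
Trp53: cggaaGGACTTGCCCTTACTTGTTAtggcg
Cdkn1a: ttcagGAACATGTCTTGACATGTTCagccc
The sequences are those of RefSeq on GRCm38.p6, written in the direction of each gene. The Ccng1 stretch is chr11:40755427-40755516 on the minus strand, outside annotated exons, and its match begins 195 bases before the start site. The Rps27l stretch is chr9:66946261-66946350 on the plus strand, within an intron, and its match begins 117 bases before an alternative start site. Both differ from the response element at 1 of 20 positions. The Aen stretch is chr7:78895932-78895961 on the plus strand, in a UTR, 10 bases after one start site and 121 bases before another, and it has 3 mismatches. The Trp53 stretch is chr11:69580279-69580308 on the plus strand, outside annotated exons, with 3 mismatches and a match that begins 75 bases before the start site. The Cdkn1a stretch is chr17:29090923-29090952 on the plus strand, with 1 mismatch, and its match begins 51 bases before an upstream start site. The window of the other, downstream start site of Cdkn1a held no match with at most 3 mismatches. Of 32851 promoter windows of 300 bases in the table, 0.067% held a match with at most 1 mismatch and 1.38% one with at most 3, and that limit of 3 was chosen after the sequences were seen. The windows of Mdm2, Mdm4, Phlda3 and Gdf15 held no such match, and Trp53inp1 was not among the windows. Each window ran from 250 bases before to 50 bases after a start site, and DNA outside the windows was not searched. A match describes the letters and does not show that p53 binds there.

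The libraries added up to 462335 to 587581 FPKM, and read counts were not used here, so counting error is unknown. Spearman correlations were 0.966 to 0.996 for libraries of one group and 0.875 to 0.965 across groups. Of 10 myeloid marker genes 9 were expressed, while Lyz2 was listed at 0 in all 12 libraries. Of 15 markers of other blood and tissue cells, 13 averaged under 1 FPKM in DMSO. The sum over all 15 was 90.6 to 150.3 FPKM in DMSO, 22.9 to 44.0 with PD325901, 224 to 287 with RAD001 and 6.55 to 9.42 with GDC0941. Pf4 had the highest mean of the 15 in each group, at 96.6, 18.5, 241 and 4.08 FPKM in the same order. The sum thus largely followed this 1 gene. The summed myeloid markers reached 1083 to 1089.7 FPKM in DMSO, 1226 to 1253 with PD325901, 1684 to 1895 with RAD001 and 1235 to 1429 with GDC0941. That sum was carried mainly by abundant genes such as Itgam, and the 9 tested markers did not move together: 4 rose and 1 fell with PD325901, 4 rose and 2 fell with RAD001, and 3 rose and 3 fell with GDC0941. The granule enzyme genes Mpo and Elane, chosen after values were seen, changed by -3.07 and -4.24 on the log2 scale with RAD001 and by -2.29 and -3.26 with GDC0941, while Itgam changed by 1.27 and 0.67. The part of these shifts in the results was not tested, and in bulk RNA fewer cells of a type cannot be told apart from less RNA per cell. The replicate 1 libraries of RAD001 and GDC0941 stood apart from replicates 2 and 3 of their groups in several members and in cell cycle genes. Cyclin B1 (Ccnb1), for example, was at 5.35, 1.71 and 1.87 FPKM in RAD001 replicates 1, 2 and 3 and at 9.27, 2.81 and 2.53 FPKM with GDC0941. Results that rest on replicate 1 are therefore given with and without it.

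The levels of the 9 genes in DMSO differed widely. Rps27l, a close relative of a ribosomal protein that interacts with Mdm2, had the highest level of the set at 268 ± 17.6 FPKM (SD, n = 3). Gdf15, a secreted stress hormone of the TGF-beta superfamily, Mdm2, and Ccng1, a cyclin that works with a protein phosphatase, lay between 48.5 and 83.4 FPKM apart from 1 Ccng1 library at 44.6 FPKM. Trp53 stood at 40.3 ± 0.103 FPKM. Aen, an exonuclease linked to cell death, Trp53inp1, a stress protein of autophagy and apoptosis, Mdm4, and Phlda3, a small membrane-lipid-binding protein that restrains Akt, were lowest. Their libraries ranged from 6.72 FPKM for Phlda3 to 15.7 FPKM for Aen, and Aen and Trp53inp1 overlapped, as did Mdm4 and Phlda3.

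**Figure D1:**
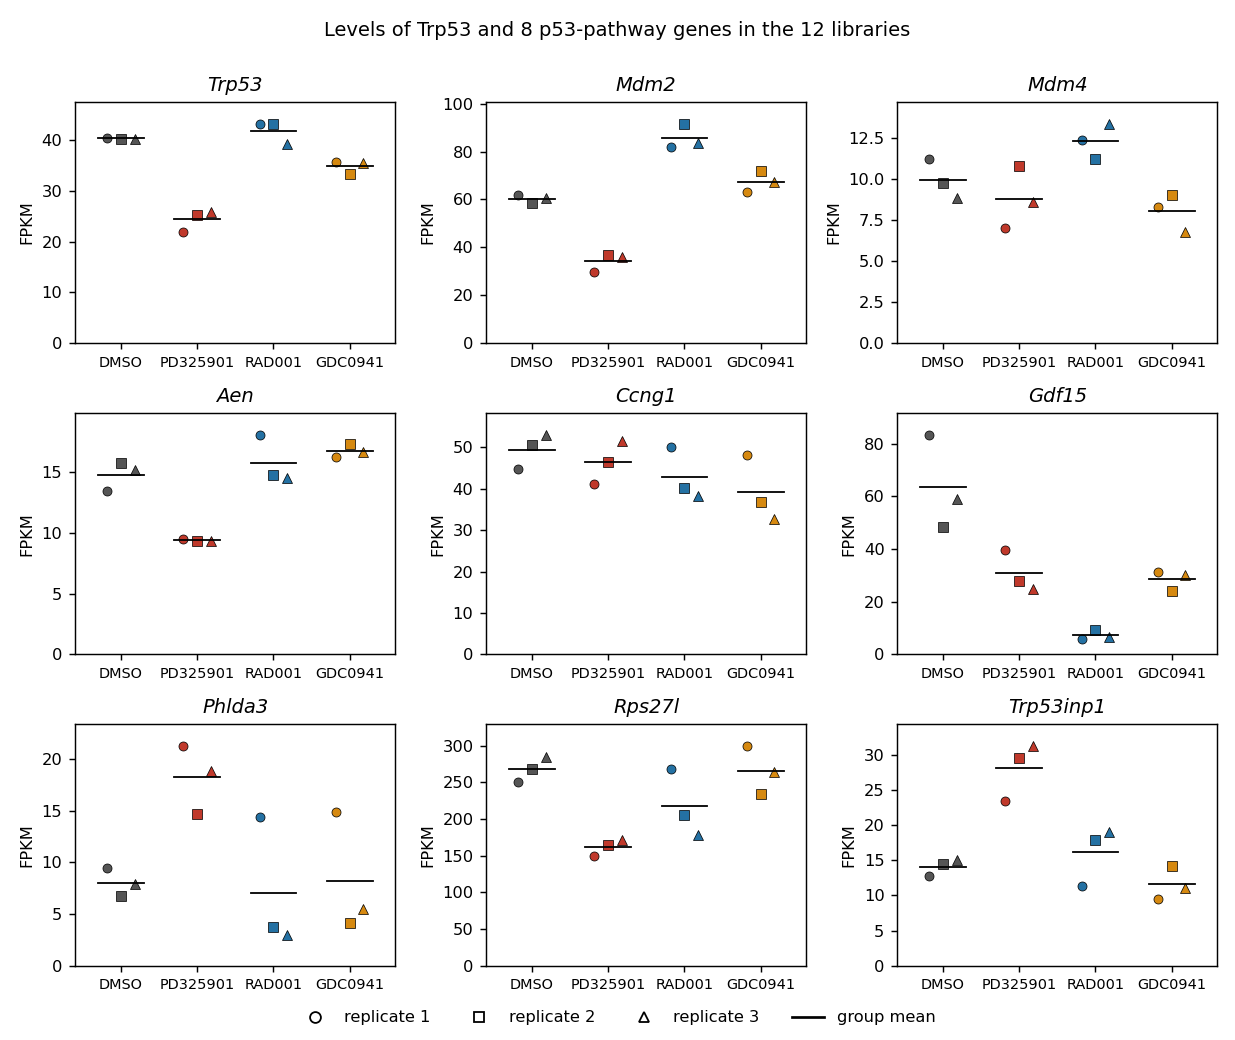
Levels of the 9 genes in FPKM (vertical axes, each starting at 0) in the DMSO, PD325901, RAD001 and GDC0941 groups. Symbols are single libraries, with a shape for each replicate number, and horizontal lines are group means of 3 libraries. The 3 PD325901 libraries lie below all DMSO libraries for Trp53, Mdm2, Aen, Gdf15 and Rps27l and above them for Trp53inp1 and Phlda3, while Gdf15 is lowest with RAD001.

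The comparison of PD325901 with DMSO asks how the genes responded to the MEK inhibitor as given. Kinase activity was not measured in any group. Trp53 RNA fell to 0.605 times the DMSO mean, and Mdm2, Aen, Gdf15 and Rps27l fell with it, whereas Trp53inp1 rose. Thus 1 member rose and 5 fell of 9 by limma, where 18.4% of all tested genes rose and 28.2% fell. Their median change was -0.60 on the log2 scale against -0.06 over all genes.

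Trp53 itself was at 40.4, 40.2 and 40.2 FPKM in the DMSO libraries and at 21.9, 25.3 and 25.9 FPKM with PD325901. The PD325901 libraries were all lower, with no overlap and little spread in either group. The fitted change was -0.70 ± 0.08 (SE) in log2(FPKM + 1), the scale of all fitted changes below, with an adjusted p = 3.98e-05 from limma after Benjamini-Hochberg adjustment over all tested genes.

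Among the inhibitors of p53, Mdm2 was at 61.7, 58.5 and 60.6 FPKM in DMSO and at 29.7, 37.0 and 36.1 FPKM with PD325901. Every treated library was well below the DMSO range, and the change was -0.80 ± 0.09 (adjusted p = 5.1e-05, limma). Mdm4 was at 11.2, 9.77 and 8.89 FPKM in DMSO and at 7.01, 10.8 and 8.60 FPKM with PD325901. These groups overlapped, and the change of -0.17 had a 95% interval of -0.50 to 0.15 (adjusted p = 0.363, limma). Mdm2 fell nearly in step with Trp53, so the FPKM ratio of Mdm2 to Trp53 was 1.497 ± 0.0388 in DMSO and 1.40 ± 0.0549 with PD325901 (SD, n = 3), with overlapping ranges of 1.45 to 1.53 and 1.36 to 1.46. The FPKM ratio of Mdm4 to Mdm2 was 0.165 ± 0.0176 in DMSO and 0.256 ± 0.0323 with PD325901.

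The targets linked to apoptosis and Akt moved in different directions. Aen was at 13.5, 15.7 and 15.1 FPKM in DMSO and at 9.48, 9.29 and 9.34 FPKM with PD325901. The treated libraries lay closely together below all DMSO libraries, a change of -0.60 ± 0.09 (adjusted p = 0.000346, limma). Trp53inp1 was at 12.7, 14.5 and 15.0 FPKM in DMSO and at 23.4, 29.6 and 31.3 FPKM with PD325901. All treated libraries were higher, and the mean was 1.99 times that of DMSO (log2 change 0.94 ± 0.19, adjusted p = 0.00211, limma). Phlda3 was at 9.46, 6.72 and 7.90 FPKM in DMSO and at 21.3, 14.6 and 18.9 FPKM with PD325901. Its groups did not overlap either, in a comparison where 25.8% of all tested genes were higher and 36.9% lower without overlap, but the shared fit gave 1.09 ± 0.49 with an adjusted p = 0.0889 by limma. With the replicate number as a block over all 12 libraries, Phlda3 passed at 1.09 ± 0.30 (adjusted p = 0.0131, limma). The numbers qualified as pairs in this comparison, but the block also spans comparisons whose numbers did not. With all 4 replicate 1 libraries left out, Phlda3 passed as well (adjusted p = 0.000409, limma). It also passed in a fit of only the PD325901 and DMSO libraries (1.09 ± 0.16, adjusted p = 0.00114, limma). Library weights gave a call too (1.12 ± 0.22, adjusted p = 0.000587, limma). Leaving out RAD001 replicate 1 or GDC0941 replicate 1 alone also gave a call (adjusted p = 0.0213 and 0.0470, limma). In those libraries Phlda3 was at 14.4 and 14.9 FPKM, against 2.99 to 5.50 FPKM in the other libraries of those groups.

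Of the remaining targets, Rps27l was at 249.98, 268 and 285 FPKM in DMSO and at 149, 165 and 171 FPKM with PD325901. It fell without overlap by 0.72 ± 0.14 on the log2 scale (adjusted p = 0.00159, limma). Gdf15 was at 83.4, 48.5 and 59.0 FPKM in DMSO and at 39.8, 27.9 and 25.1 FPKM with PD325901. It fell to 0.486 times the DMSO mean despite the high first DMSO library (log2 change -1.01 ± 0.23, adjusted p = 0.00389, limma). Ccng1 was at 44.6, 50.6 and 52.99 FPKM in DMSO and at 41.1, 46.4 and 51.6 FPKM with PD325901. Those groups overlapped almost fully (-0.09, 95% interval -0.42 to 0.23, adjusted p = 0.641, limma). The 2 genes with the closest matches to the response element thus differed, since Rps27l fell and Ccng1 did not pass. The calls of Trp53, Mdm2, Aen, Gdf15, Rps27l and Trp53inp1 held under all 23 alternative settings.

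The comparison of RAD001 with DMSO asks the same of the inhibitor of mTOR complex 1. Here Mdm2 rose to 1.42 times the DMSO mean and Gdf15 fell to 0.115 times, the lowest Gdf15 level of any group, while Trp53 showed a change of 0.05 with a 95% interval of -0.12 to 0.22. By limma 1 of the 9 members rose and 1 fell, against 15.4% and 15.9% of all tested genes, and the median member change of 0.05 was close to that of all genes, 0.00.

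With RAD001 Trp53 was at 43.0, 43.1 and 39.2 FPKM, a range that spans the 3 DMSO values (adjusted p = 0.639, limma). Mdm2 was at 81.9, 91.6 and 83.5 FPKM, above every DMSO library, a change of 0.50 ± 0.09 (adjusted p = 0.00204, limma). The FPKM ratio of Mdm2 to Trp53 was 1.90 to 2.13 in these libraries, above the DMSO range. Mdm4 was at 12.4, 11.3 and 13.4 FPKM, just above the DMSO libraries, and did not pass (0.29 ± 0.15, adjusted p = 0.162, limma). Of all tested genes, 25.3% were likewise higher without overlap and 25.6% lower. With library weights Mdm4 passed (0.29 ± 0.09, adjusted p = 0.0127, limma).

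Gdf15 was at 5.74, 9.42 and 6.75 FPKM with RAD001. Its lowest DMSO library, at 48.5 FPKM, was far above all of these, and the log2 change was -2.95 ± 0.23 (adjusted p = 1.54e-05, limma). Both calls, of Mdm2 and of Gdf15, held under all 23 alternative settings. Aen was at 18.05, 14.8 and 14.5 FPKM and overlapped DMSO (0.08 ± 0.09, adjusted p = 0.504, limma). Its replicate 1 lay above replicates 2 and 3. With the replicate 1 library of every group left out, the Aen change was -0.07 (adjusted p = 0.433, limma).

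The other 4 members also differed between replicate 1 and replicates 2 and 3. Phlda3 was at 14.4, 3.76 and 2.99 FPKM, Rps27l at 268, 206 and 179 FPKM, Ccng1 at 50.04, 40.3 and 38.2 FPKM, and Trp53inp1 at 11.4, 17.97 and 19.1 FPKM with RAD001. In each gene replicates 2 and 3 lay together and replicate 1 lay apart, within or beyond the DMSO range. In the main fit of all libraries none of the 4 passed. Adjusted p by limma was 0.526 for Phlda3, 0.108 for Rps27l, 0.310 for Ccng1 and 0.557 for Trp53inp1. With library weights, also on all 12 libraries and the scaling as deposited, all 4 passed. Adjusted p by limma was then 0.00226, 8.67e-05, 0.000507 and 0.0136 in the same order. That setting called 6923 genes, against 3224 in the main fit. With the replicate 1 library of every group left out, Phlda3 changed by -0.93 (adjusted p = 0.00137), Rps27l by -0.52 (0.00129), Ccng1 by -0.39 (0.00444) and Trp53inp1 by 0.31 (0.0443), all by limma. Then 2 members rose and 4 fell, against 22.8% and 24.1% of all genes tested in that setting. Rps27l also passed without RAD001 replicate 1 alone, at -0.48 (adjusted p = 0.0116, limma), and with all 12 libraries after quantile normalization, at -0.51 (0.0103). Rps27, its near-identical relative, was at 78.7, 3.12 and 109 FPKM with RAD001 and at 2.67 to 3.44 FPKM in DMSO, and reads from such copies could be assigned to either gene.

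The comparison of GDC0941 with DMSO concerns the PI3 kinase inhibitor. Gdf15 was the 1 member that passed in the shared fit, and it fell to 0.448 times the DMSO mean, while 11.6% of all tested genes rose and 12.7% fell. The median member change was -0.21 against 0.02 over all genes. Trp53 lay below the DMSO range, and Mdm2 and Aen lay just above it, without passing, in a comparison where 20.3% of all genes were higher and 18.3% lower without overlap.

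Gdf15 was at 31.2, 23.9 and 30.3 FPKM with GDC0941, below all DMSO libraries (-1.11 ± 0.23, adjusted p = 0.00534, limma), and this call held under all 23 alternative settings. Trp53 was at 35.6, 33.3 and 35.5 FPKM, below its DMSO values (-0.21 ± 0.08, adjusted p = 0.0717, limma). Without PD325901 replicate 1, which enters only the shared spread, that p was 0.0432. Mdm2 was at 63.2, 71.9 and 67.2 FPKM, above DMSO by 0.16 ± 0.09 (adjusted p = 0.237, limma). The FPKM ratio of Mdm2 to Trp53 was 1.78 to 2.16, again above the DMSO range. Aen was at 16.2, 17.3 and 16.7 FPKM, also above DMSO (0.17 ± 0.09, adjusted p = 0.201, limma). Mdm4 was at 8.34, 9.03 and 6.78 FPKM and overlapped DMSO (-0.28 ± 0.15, adjusted p = 0.195, limma).

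The first GDC0941 library again stood apart in Ccng1 and Phlda3. Ccng1 was at 48.2, 36.9 and 32.6 FPKM and Phlda3 at 14.9, 4.13 and 5.50 FPKM with GDC0941. Less distinct were Rps27l, at 299.5, 234 and 264 FPKM, and Trp53inp1, at 9.54, 14.2 and 11.0 FPKM. With all libraries these 4 genes overlapped DMSO, with adjusted p values of 0.121, 0.864, 0.954 and 0.329 by limma in the same order. With library weights on the same libraries Ccng1 passed (-0.47 ± 0.11, adjusted p = 0.00493), as did Trp53 (-0.23 ± 0.07, 0.0249), by limma. With the replicate 1 library of every group left out, Ccng1 fell by 0.56 (adjusted p = 0.000650), Phlda3 by 0.52 (0.0273) and Trp53 by 0.22 (0.0362) on the log2 scale, and Mdm2 rose by 0.22 (0.0343), all by limma. In that setting 1 member rose and 4 fell, against 18.9% and 22.9% of all genes tested. Without GDC0941 replicate 1 alone, Ccng1 changed by -0.49 (adjusted p = 0.0188, limma).

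**Figure D2:**
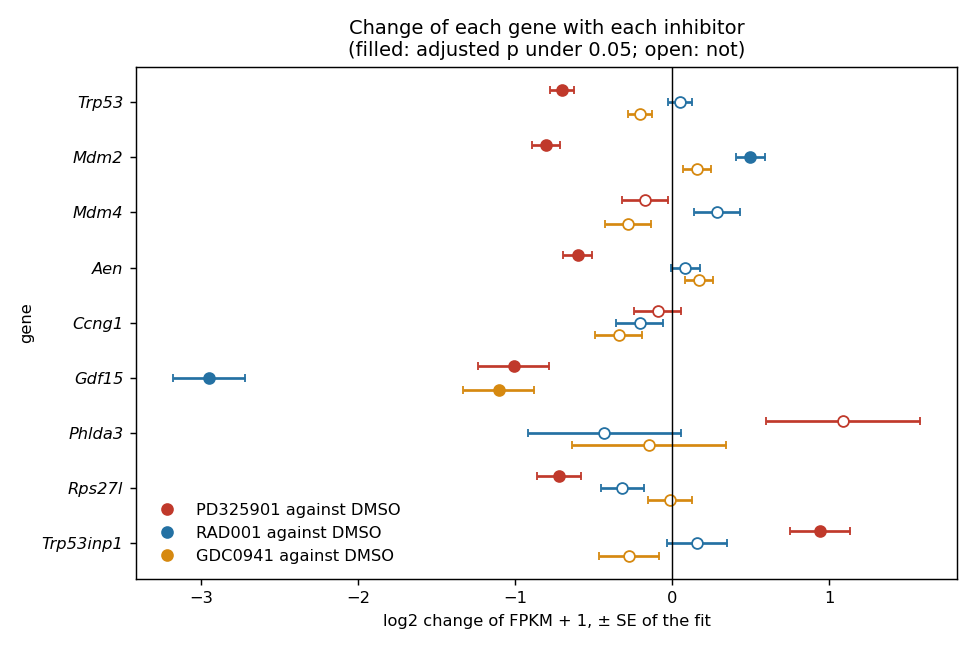
Fitted change of each of the 9 genes against DMSO in log2(FPKM + 1) (horizontal axis) for PD325901, RAD001 and GDC0941, with bars of ± 1 SE from the limma fit. Filled symbols mark an adjusted p under 0.05 and open symbols the rest. Gdf15 is below 0 with all 3 inhibitors, Trp53, Aen and Rps27l pass on the lower side with PD325901, and Mdm2 is on opposite sides of 0 with PD325901 and RAD001.

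The 3 inhibitors share the DMSO libraries, so differences between them were tested directly. The compounds are not structurally related and RAD001 was given at another concentration than PD325901 and GDC0941, so these are comparisons of treatments as given. PD325901 left Trp53, Mdm2 and Aen lower and Trp53inp1 higher than either of the other treatments. RAD001 left Gdf15 lower than either.

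Against RAD001, PD325901 libraries had Trp53 lower by a fitted -0.76 ± 0.08 (adjusted p = 1.4e-05, limma), Mdm2 by -1.30 ± 0.09 (1.14e-06) and Aen by -0.69 ± 0.09 (9.44e-05). Mean Mdm2 was thus 0.400 times that with RAD001. Gdf15 was higher by 1.94 ± 0.23 (adjusted p = 3.91e-05, limma) and Trp53inp1 by 0.78 ± 0.19 (0.0052). In all 3 members were higher and 5 lower, where 20.8% and 29.4% of all tested genes were so called. The 3 weaker calls were those of Mdm4 (-0.46, adjusted p = 0.0227), Rps27l (-0.41, 0.0305) and Phlda3 (1.52, 0.0228), all by limma. Each ended when 1 of several libraries was left out. Mdm4 had an adjusted p = 0.0929 without PD325901 replicate 1, 0.0587 without PD325901 replicate 3 and 0.0772 without RAD001 replicate 3. Rps27l had 0.0966 and 0.0619 without PD325901 replicates 1 and 2, and 0.107 and 0.0535 without RAD001 replicates 1 and 2. With RAD001 replicate 1 left out its change was -0.25. Quantile normalization ended the calls of Rps27l (-0.16, adjusted p = 0.312) and Mdm4 (-0.36, 0.0591), and fitting only these groups that of Rps27l (0.0594), by limma. Phlda3 had 0.0680 and 0.0589 without PD325901 replicates 1 and 3, and 0.0833 and 0.0920 without RAD001 replicates 2 and 3. With the replicate 1 library of every group left out, Mdm4 (adjusted p = 0.0951) and Rps27l (0.0944) did not pass, and Ccng1 did at 0.31 (0.0105), by limma.

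Against GDC0941, PD325901 libraries had Trp53 lower by a fitted -0.50 ± 0.08 (adjusted p = 0.000259, limma), Mdm2 by -0.96 ± 0.09 (8.45e-06), Aen by -0.77 ± 0.09 (3.91e-05) and Rps27l by -0.71 ± 0.14 (0.00138). Trp53inp1 was higher, at 2.42 times the GDC0941 mean (1.21 ± 0.19, adjusted p = 0.000300, limma). These 5 of 9 members, 1 higher and 4 lower, stand beside 20.9% and 30.7% of all tested genes. Gdf15, which fell with both, did not differ detectably between them, with a difference of 0.10 and a 95% interval of -0.40 to 0.60 (adjusted p = 0.751, limma). Phlda3 showed 1.24 ± 0.49 (adjusted p = 0.0536, limma), and the PD325901 libraries overlapped the high first GDC0941 library. With the replicate 1 library of every group left out Phlda3 (1.61, adjusted p = 2.8e-05) and Ccng1 (0.48, 0.000895) were higher with PD325901 by limma. Phlda3 also passed without GDC0941 replicate 1 alone, at 1.72, without RAD001 replicate 1 (adjusted p = 0.0103) and without RAD001 replicate 3 (0.0448), by limma. In all it passed under 10 of 23 alternatives, among them the fit of only these groups (adjusted p = 0.0313, limma). Ccng1 passed without GDC0941 replicate 1 as well, at 0.40.

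Between GDC0941 and RAD001 1 member was higher and 3 were lower with GDC0941, among 8.09% and 9.35% of all tested genes. Gdf15 was 3.90 times as high with GDC0941 (1.84 ± 0.23, adjusted p = 0.000348, limma). Mdm4 (-0.57 ± 0.15, adjusted p = 0.0237), Mdm2 (-0.34 ± 0.09, 0.0260) and Trp53 (-0.26 ± 0.08, 0.0404) were lower by limma. These 3 calls were less firm. Mdm4 had an adjusted p = 0.0749 without GDC0941 replicate 3 and 0.0901 without RAD001 replicate 3. For Mdm2 the adjusted p was 0.103 without RAD001 replicate 2 and 0.0644 without RAD001 replicate 3, and leaving out GDC0941 replicate 1 (0.0669) or 3 (0.058) also ended the call. Trp53 lost its call under 12 of 23 alternatives, with a highest adjusted p = 0.134 without RAD001 replicate 2. With the replicate block Trp53inp1 also passed, lower with GDC0941 by -0.43 (adjusted p = 0.0244, against 0.140 without the block, limma). The RAD001 and GDC0941 numbers qualified as pairs, but the block spans all groups, including comparisons whose numbers did not qualify. Without RAD001 replicate 1 alone Trp53inp1 was at -0.65 (adjusted p = 0.0193) and Rps27l at 0.46 (0.0215) by limma. Both also passed when the replicate 1 library of every group was left out, at -0.53 (adjusted p = 0.00583) and 0.37 (0.0121) by limma. Library weights called Trp53inp1 as well (-0.46 ± 0.13, adjusted p = 0.0235, limma).

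Other direct p53 targets give the setting for these 9 genes. Of 33 listed, 31 were tested, and the direction was mixed in every comparison with DMSO. With PD325901 4 rose, 7 fell and 20 did not pass, with a median change of -0.08 against -0.06 over all genes, of which 18.4% rose and 28.2% fell. With RAD001 3 rose, 5 fell and 23 did not pass, with a median of -0.04 against 0.00, where 15.4% and 15.9% of all genes did so. With GDC0941 3 rose, 8 fell and 20 did not pass, with a median of -0.09 against 0.02 over all genes, of which 11.6% rose and 12.7% fell. Cdkn1a and Bax are described whatever their p, and the other targets named have the smallest adjusted p in their comparison.

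Cdkn1a encodes p21, the p53-induced inhibitor of cyclin-dependent kinases. It was at 167, 122 and 132 FPKM in DMSO and at 281, 244 and 199 FPKM with RAD001. The RAD001 libraries were all higher, by 0.78 ± 0.15 (adjusted p = 0.00333, limma), as Mdm2 was in the same libraries. Cdkn1a was at 96.4, 122.5 and 131 FPKM with PD325901 and at 161, 161 and 147 FPKM with GDC0941. Both overlapped DMSO and neither passed (adjusted p = 0.184 and 0.470, limma).

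Bax, which permeabilises mitochondria in apoptosis, was at 212, 200.2 and 196 FPKM in DMSO, at 160.0, 162 and 167 FPKM with PD325901 and at 253, 239 and 299 FPKM with GDC0941. It fell with PD325901 (-0.31 ± 0.09, adjusted p = 0.0162) and rose with GDC0941 (0.37 ± 0.09, 0.0140), both without overlap by limma. The first call ended without DMSO replicate 1 (adjusted p = 0.0546), and the second without DMSO replicate 2 (0.0511) or 3 (0.0556). With RAD001 it was at 249, 224 and 213 FPKM and did not pass (0.17 ± 0.09, adjusted p = 0.183, limma). Other targets that fell with PD325901 were the death receptor Tnfrsf10b (-0.95 ± 0.16), the stress kinase Plk3 (-2.01 ± 0.36) and Tigar (-0.52 ± 0.10), an enzyme that lowers glycolytic flux. Dram1, a lysosomal protein of autophagy, rose (0.55 ± 0.12).

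Among the targets named for RAD001 and GDC0941, Sesn2, Sesn1 and Ddit4 are known as negative regulators of mTOR complex 1. Sesn2, a stress sensor of the sestrin family, was at 21.6, 18.9 and 18.7 FPKM in DMSO, at 10.1, 11.4 and 11.8 FPKM with RAD001 and at 7.06, 7.42 and 6.54 FPKM with GDC0941. Both groups lay well below DMSO (-0.78 ± 0.09, adjusted p = 0.000137, and -1.37 ± 0.09, 1.13e-05, limma). Its relative Sesn1 fell as well, by 1.32 ± 0.20 with RAD001 and by 0.96 ± 0.20 with GDC0941. Ddit4 fell by 1.46 ± 0.29 and by 2.29 ± 0.29. Pmaip1, which encodes the apoptosis inducer Noxa, fell with GDC0941 (-1.12 ± 0.15, adjusted p = 0.000658, limma), and Sertad1 rose with RAD001 (0.91 ± 0.15, adjusted p = 0.00128, limma).

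Upstream of p53, 24 of 27 listed regulators were tested. With PD325901 2 rose, 9 fell and 13 did not pass, with a median change of -0.21 against -0.06 over all genes, of which 18.4% rose and 28.2% fell. With RAD001 7 rose, 2 fell and 15 did not pass, with a median of 0.23 against 0.00, where 15.4% and 15.9% of all genes rose and fell. With GDC0941 5 rose, none of the 24 fell by limma and 19 did not pass, with a median of 0.07 against 0.02, where 11.6% and 12.7% of all genes rose and fell. Cdkn2a, whose Arf product inhibits Mdm2 and whose other product p16 was not separated from it, was at 146, 154 and 153 FPKM in DMSO. It was at 398, 259 and 234 FPKM with RAD001 and at 363, 301 and 368 FPKM with GDC0941. Both groups were above all DMSO libraries, by 0.93 ± 0.17 (adjusted p = 0.00178) and 1.18 ± 0.17 (0.000727), by limma. With PD325901 Cdkn2a was at 122, 137 and 141 FPKM, below all DMSO libraries, as were 36.9% of all tested genes. Myc, an oncogene product that can induce Arf, was at 25.1, 19.5 and 23.0 FPKM in DMSO and at 1.202, 1.17 and 0.962 FPKM with PD325901. It fell by 3.47 ± 0.10 on the log2 scale (adjusted p = 7.41e-09, limma), and rose with RAD001 (0.64 ± 0.10, 0.00113) and GDC0941 (0.62 ± 0.10, 0.00185). Npm1, a nucleolar protein that binds Arf and Mdm2, fell with PD325901 from 329 ± 11.8 to 144 ± 12.1 FPKM (SD, n = 3). Bmi1, a polycomb repressor of Cdkn2a, and the deacetylase Hdac1 also fell with PD325901 (-0.68 ± 0.11 and -0.38 ± 0.09). Rpl23, a ribosomal protein that binds Mdm2, and Akt1, a kinase that activates Mdm2, rose with RAD001 (0.47 ± 0.10 and 0.32 ± 0.07), and quantile normalization ended both calls. They rose with GDC0941 too (0.51 ± 0.10, adjusted p = 0.00367, and 0.29 ± 0.07, 0.0101, limma). That Rpl23 call held under all 23 alternative settings. The Akt1 call ended only in the fit of GDC0941 and DMSO alone (adjusted p = 0.0530, limma).

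**Figure D3:**
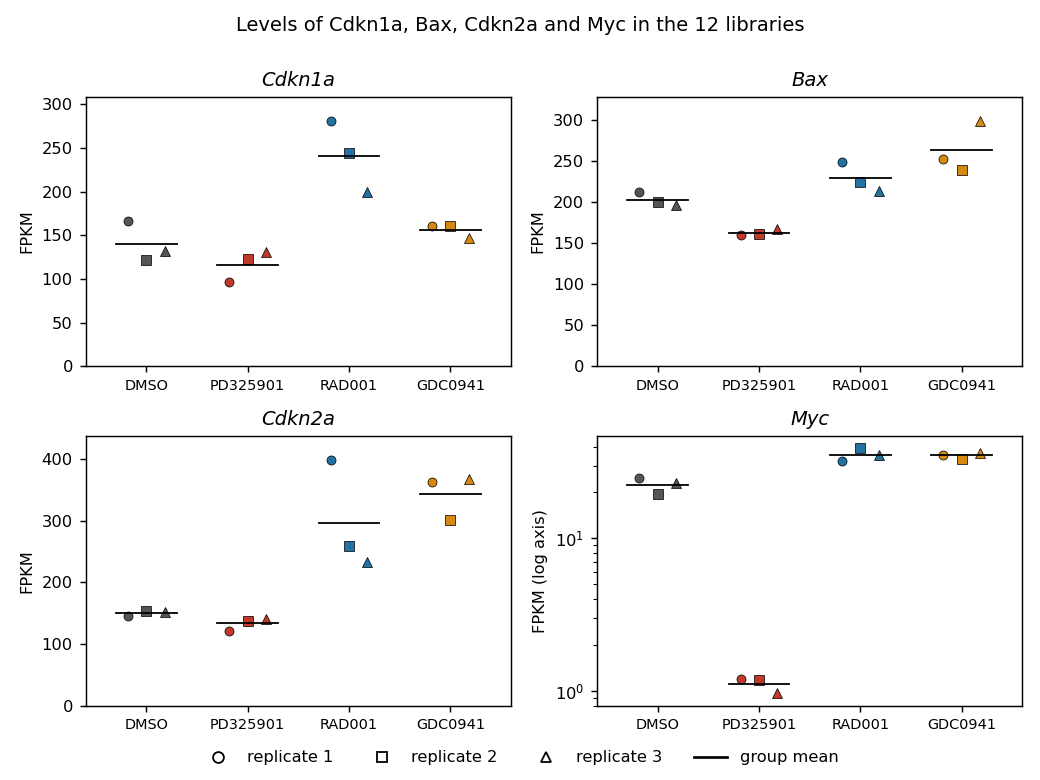
Levels in FPKM (vertical axes, starting at 0 for Cdkn1a, Bax and Cdkn2a and logarithmic for Myc) in the 4 groups. Symbols are single libraries, with a shape for each replicate number, and horizontal lines are group means. Cdkn2a is above all DMSO libraries with RAD001 and GDC0941, and Myc lies between 0.962 and 1.202 FPKM with PD325901.

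Downstream of p21, a set of 15 cell cycle genes that p53 lowers through p21 and the DREAM complex was lower with each inhibitor. By limma 14 fell with PD325901, 15 with RAD001 and 14 with GDC0941, and none of the 15 rose in any comparison. Over all tested genes 28.2%, 15.9% and 12.7% fell. The median changes of the 15 were -1.09, -1.90 and -1.48 on the log2 scale, against -0.06, 0.00 and 0.02 over all genes. The mitotic kinase Aurka fell by 1.39 ± 0.23, 1.90 ± 0.23 and 1.74 ± 0.23 with PD325901, RAD001 and GDC0941. Another mitotic kinase, Plk1, fell by 1.31 ± 0.30, 2.07 ± 0.30 and 1.75 ± 0.30. In the same 3 comparisons Cdkn1a rose only with RAD001, and whether the Cdkn1a responses account for the lower cell cycle genes was not tested.

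**Figure D4:**
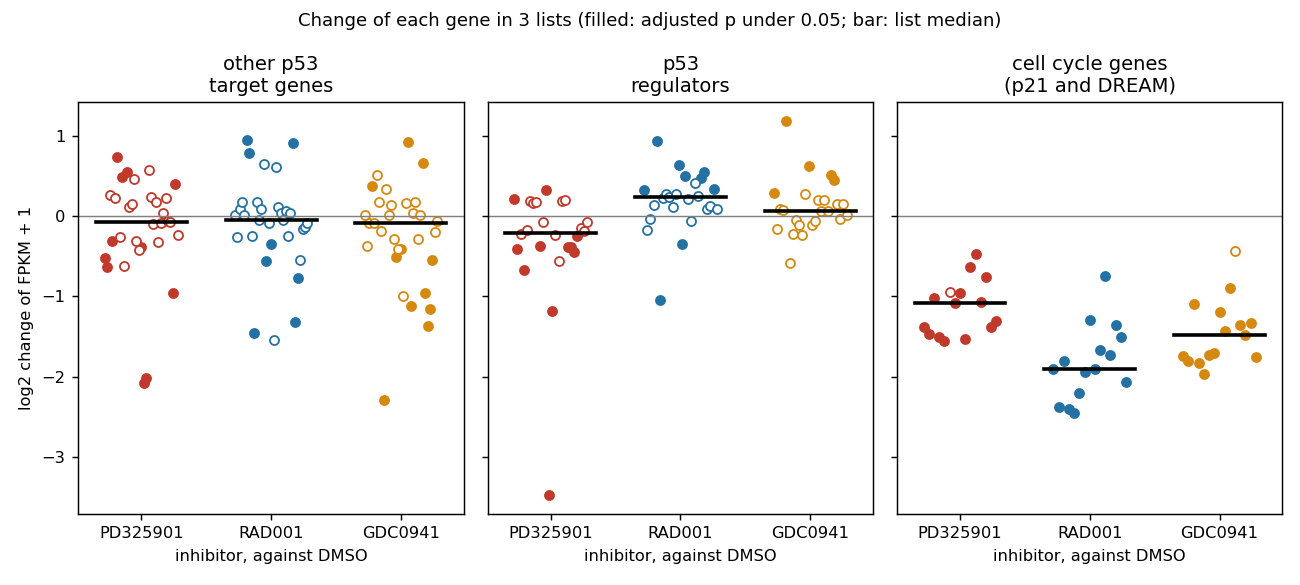
Fitted change against DMSO in log2(FPKM + 1) (vertical axis) of each tested gene in 3 lists, further p53 targets, p53 regulators and cell cycle genes, for the 3 inhibitors. Each point is 1 gene, filled where the adjusted p was under 0.05, and black lines are list medians. The 31 further p53 targets scatter on both sides of 0, with medians of -0.08, -0.04 and -0.09, while the 15 cell cycle genes have medians of -1.09, -1.90 and -1.48.

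Close relatives of the members, and Sesn3, were measured beside them. Trp53inp2, the relative of Trp53inp1, was at 22.6, 21.98 and 23.1 FPKM in DMSO and at 52.5, 41.9 and 43.0 FPKM with PD325901. Both relatives rose there (Trp53inp2 0.98 ± 0.13, adjusted p = 0.000182, limma). Ccng2, the relative of Ccng1, also rose with PD325901 (0.66 ± 0.12, adjusted p = 0.00121, limma), while Ccng1 did not pass. Phlda1, a relative of Phlda3 that is known to follow ERK signalling, was at 9.14, 4.51 and 4.88 FPKM in DMSO, at 1.64, 1.204 and 0.976 FPKM with PD325901 and at 54.9, 37.3 and 30.0 FPKM with RAD001. It fell by 1.61 ± 0.26 with PD325901 and rose by 2.55 ± 0.26 with RAD001 and by 1.73 ± 0.26 with GDC0941. Sesn3, the third sestrin, is a relative of Sesn1 and Sesn2 and not of a member. It fell with RAD001 (-0.996 ± 0.17) and GDC0941 (-1.37 ± 0.17). Of the 7 genes of this list tested, Sesn3 among them, 2 rose and 2 fell with PD325901. In the same list 2 rose and 2 fell with RAD001, and 1 rose and 3 fell with GDC0941. The shares of all tested genes that rose and fell were 18.4% and 28.2%, 15.4% and 15.9%, and 11.6% and 12.7%. Among these calls, that of Rps27 with RAD001 (3.05 ± 0.92, adjusted p = 0.0266, limma) was lost under 9 of 23 alternatives, and that of Isg20l2, a relative of Aen, with PD325901 (-0.23 ± 0.08, adjusted p = 0.0436, limma) under 10. Trp53inp2 fell with GDC0941 (-0.46 ± 0.13, adjusted p = 0.0292, limma), and that call was lost under 6, among them leaving out any 1 DMSO library or GDC0941 replicate 2 or 3 (adjusted p = 0.0673 to 0.105).

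Genes whose pattern over the 12 libraries was most like a member were found by the root mean square difference in log2(FPKM + 1) relative to each gene's DMSO mean, among 7551 genes of at least 5 FPKM. Closest to Trp53 were Dazap1 (0.0875), Xpo1 (0.0907) and Acot7 (0.105). Closest to Mdm2 were Zwint, Riok2 and Ifitm3, each at 0.120. Gdf15 had no close match: Shmt2 (0.644), Asns (0.649) and Aurkb (0.659) were nearest, with RAD001 changes of -1.93, -1.79 and -2.18 against -2.95 for Gdf15. Among the members themselves, Aen and Rps27l were closest to Trp53, at 0.220 and 0.240. These distances are descriptions over libraries that share depth and group structure.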

How the data were processed

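Total RNA from the 12 samples was sequenced. The deposited table holds FPKM values per gene symbol, which the authors made with TopHat2 2.0.4 and Cuffdiff on mm9, per the submitters' processing notes. Its version, the annotation and any scaling across libraries: not given in the sources used here.

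Values were analysed as log2(FPKM + 1) in R 4.3.3 with limma 3.58.1. The 10305 genes that averaged 1 FPKM or more entered 1 linear model with 4 group means, 8 residual degrees of freedom and a trended prior. Each of 6 comparisons was two-sided, with Benjamini-Hochberg adjustment over all genes and a threshold of 0.05. The low-value pseudocount makes fitted changes of weakly expressed genes smaller than their FPKM ratios. The procedure was tested on simulated data.

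The members and lists were chosen with earlier results of these data known. Named genes are the 9 members, Cdkn1a, Bax, Myc, up to 4 members of each list with the smallest adjusted p per inhibitor, and the 3 genes most like Trp53, Mdm2 and Gdf15. Ccnb1, Tap1, Plk2, Pf4, Lyz2, Mpo, Elane, Itgam and the further values given for named genes were chosen after values were seen. Lists are described by counts and medians alone.

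The replicate numbers come from the labels, which do not say what they pair. Deviations of same-numbered libraries correlated above 0.1 in all 3 pairs for PD325901 and RAD001 against DMSO, PD325901 against RAD001 and GDC0941 against RAD001. The lowest r was 0.0354 between GDC0941 and DMSO and -0.139 between PD325901 and GDC0941. The own number gave the highest r for all 3 libraries in PD325901 against DMSO and GDC0941 against RAD001. It did so for 2 in PD325901 against GDC0941 and for only 1 in each remaining comparison. Promoter sequences are RefSeq's on GRCm38.p6, matched by symbol for 8 of 9 members. Alternatives were other pseudocounts, filters, scalings, library weights, sample sets, a replicate block and leaving out libraries.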

Additional observations from a re-analysis of the deposited data

How the results depend on the processing

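Over 54 member results and 23 alternative settings, 1160 of 1242 values stayed on their side of the threshold, 36 calls were lost and 46 were gained. No called value changed sign, while 14 values that passed in neither fit did. Library weights gave 7 members called for RAD001 and 3 for GDC0941 against DMSO (main counts 2 and 1), 20 and 19 direct targets for PD325901 and RAD001 (11 and 8), and 6923, 3849 and 3048 genes for RAD001 against DMSO, GDC0941 against DMSO and GDC0941 against RAD001 (3224, 2503 and 1798). Leaving out all 4 replicate 1 libraries gave 6 and 5 members for RAD001 and GDC0941, 15 direct targets for RAD001, and 4281 and 3413 genes for GDC0941 against DMSO and against RAD001. A filter at 5 FPKM, which tests fewer genes, left 7 direct targets for PD325901. For GDC0941 against RAD001, quantile normalization and the fit of only the groups compared each left 2 of 4 members, and the latter 701 genes. Quantile normalization also turned the split of higher and lower genes for PD325901 against DMSO from 1893 and 2909 to 2675 and 2455, and against RAD001 from 2145 and 3027 to 2639 and 2572.

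Leaving out 1 library gave 6 to 7 members for PD325901, 2 to 3 for RAD001 and 1 to 2 for GDC0941 against DMSO, 5 to 8 for PD325901 against RAD001, 5 to 7 against GDC0941, and 1 (without GDC0941 replicate 3) to 5 for GDC0941 against RAD001. Direct targets ranged from 7 to 13, 7 to 10 and 6 to 13. Genes ranged from 4016 to 5204, 2216 to 3673 and 1632 (without DMSO replicate 2) to 3131 in the comparisons with DMSO, from 4395 to 5601 and 4518 to 5428 with PD325901 set against RAD001 and GDC0941, and from 960 (without RAD001 replicate 2) to 1975 for GDC0941 against RAD001. The replicate block called 7, 2 and 1 members against DMSO, 8 and 6 when PD325901 was set against RAD001 and GDC0941, and 5 for GDC0941 against RAD001. It also called Phlda3 for PD325901 against GDC0941 (adjusted p = 0.00606, limma), where the numbers did not qualify as pairs, and Trp53inp1 for GDC0941 against RAD001 and Phlda3 for PD325901 against DMSO as given above, and changed no other member's call. Over the 23 settings the genes called ranged from 3750 to 7073, 2216 to 6923 and 1632 to 4281 for PD325901, RAD001 and GDC0941 against DMSO. They ranged from 4074 to 7398 and 4196 to 6064 for PD325901 against RAD001 and GDC0941, and from 701 to 3413 for GDC0941 against RAD001. The member and target counts are therefore not a result about those genes alone. The cause of these shifts was not tested. With 3 libraries a group and no read counts, precision is limited by the spread between libraries.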

Other observations

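The p53 relatives were nearly silent: Trp63 reached at most 0.0819 FPKM and Trp73 at most 0.0155 FPKM in any library. Chek1, the checkpoint kinase, averaged under 1 FPKM over the 12 libraries and was therefore not tested, although it was at 1.55, 1.80 and 1.82 FPKM in DMSO and at 0.186 to 0.949 FPKM in the treated libraries. Cd3e, a T cell gene, was listed at 0 in the replicate 1 library of all 4 groups and at 0.0931 to 1.06 FPKM in the other 8.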
